A study of Rattus norvegicus with 6 samples.

Results

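Integrins and laminins were examined in cultured rat oligodendrocyte precursor cells (OPCs), the dividing cells from which oligodendrocytes arise. The members were all rows of the deposited gene table whose name marks an integrin α or β chain or a laminin α, β or γ chain, with the integrin-binding proteins and Itgbl1 left out. This gave 35 of the 32883 genes in the table, 25 integrin chains and 10 laminin chains. The choice went by gene name, but it was made with earlier results of these data known, as were the gene lists used below. A row that the table describes as the laminin α3 chain but lists under the clone name AABR07031193.1 is outside this choice, and its counts were between 22 and 38 per library.

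The study asked how ZJU-37, an inhibitor of the kinase RIPK1 made from Nec-1s by adding an amide bond, changes gene expression in these cells. OPCs were purified by shaking from mixed cultures of the cerebral cortices of 2 Sprague Dawley rats at postnatal day 0, and were then kept with 5 µM ZJU-37 or with its solvent DMSO for 36 h by the sample labels (the paper's legend gives the same time and its methods a shorter one). Poly-A RNA was sequenced from 3 libraries per group, with replicate numbers 1 to 3 in both. The comparison has 1 dose and 1 time point in cells grown apart from the brain. The study calls the 3 replicates biological repeats in its methods and plate wells in a figure legend, so the p-values measure the spread between these libraries, which may be technical.

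Library totals ran from 13935865 to 24097927 counts, so that 3 counts correspond to between 0.124 and 0.215 CPM (counts of a gene scaled to a common library total). These limits include no error other than that of counting. The markers of the labelled cell type were present, with 9 of 9 OPC markers tested and a summed level of 4144 to 4790 CPM with DMSO and 4554 to 6272 CPM with ZJU-37. The sum hides moves in both directions. At an adjusted p-value under 0.05 (edgeR), 4 of these markers rose and 3 fell, or 77.8% called against 15.0% of all tested genes. Other cells were present too. The 14 microglia markers summed to between 2806 and 4870 CPM with DMSO and between 1999 and 4234 CPM with ZJU-37, and the 10 astrocyte markers to between 1137 and 1805 CPM and between 1007 and 1493 CPM. The 12 mature oligodendrocyte markers summed to between 13299 and 25297 CPM with DMSO and between 5242 and 10536 CPM with ZJU-37, without overlap. The endothelial marker Cldn5 and the T cell marker Cd3e had 0 counts in all 6 libraries. This allows at most 0.215 CPM of each in the smallest of them. Their lists as a whole were not at 0. The 7 endothelial markers summed to between 17.8 and 21.4 CPM with DMSO and between 13.03 and 19.6 CPM with ZJU-37. The 8 platelet and T cell markers summed to between 9.79 and 13.3 CPM and between 8.16 and 16.2 CPM. The zeros of single markers therefore do not show that such cells were absent.

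Integrins are cell surface receptors made of an α and a β chain that join the matrix outside a cell to the actin skeleton and to kinases such as focal adhesion kinase inside it. Laminins are secreted trimers of an α, a β and a γ chain and form the core of basement membranes. Cells of the oligodendrocyte lineage are known to use integrins with the common β1 chain to bind laminin, and αv integrins to bind matrix proteins that carry the RGD tripeptide, in migration, survival and myelination.

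Of the 35 members, 29 had enough counts to be tested. Between ZJU-37 and DMSO, 3 of these 29 rose and 0 fell at an adjusted p-value under 0.05 (quasi-likelihood test of edgeR, adjusted by Benjamini-Hochberg over all 14670 genes tested). They were the laminin chain Lama4 and the RGD-binding integrin chains Itga8 and Itgav. The 3 called members are 10.3% of those tested, against 15.0% of all tested genes called in this comparison (9.43% higher and 5.58% lower), so the families as a whole did not stand above the background. At an unadjusted p-value under 0.05, 5 members were higher and 0 lower. DESeq2 called 4 higher and 0 lower, and limma-voom 3 and 0. The median log2 fold change was -0.11 over the 29 members and -0.03 over all tested genes. The replicate numbers paired the libraries. When edgeR was given them as a block, 7 members were called, 4 higher and 3 lower, against 32.1% of all tested genes.

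**Figure D1:**
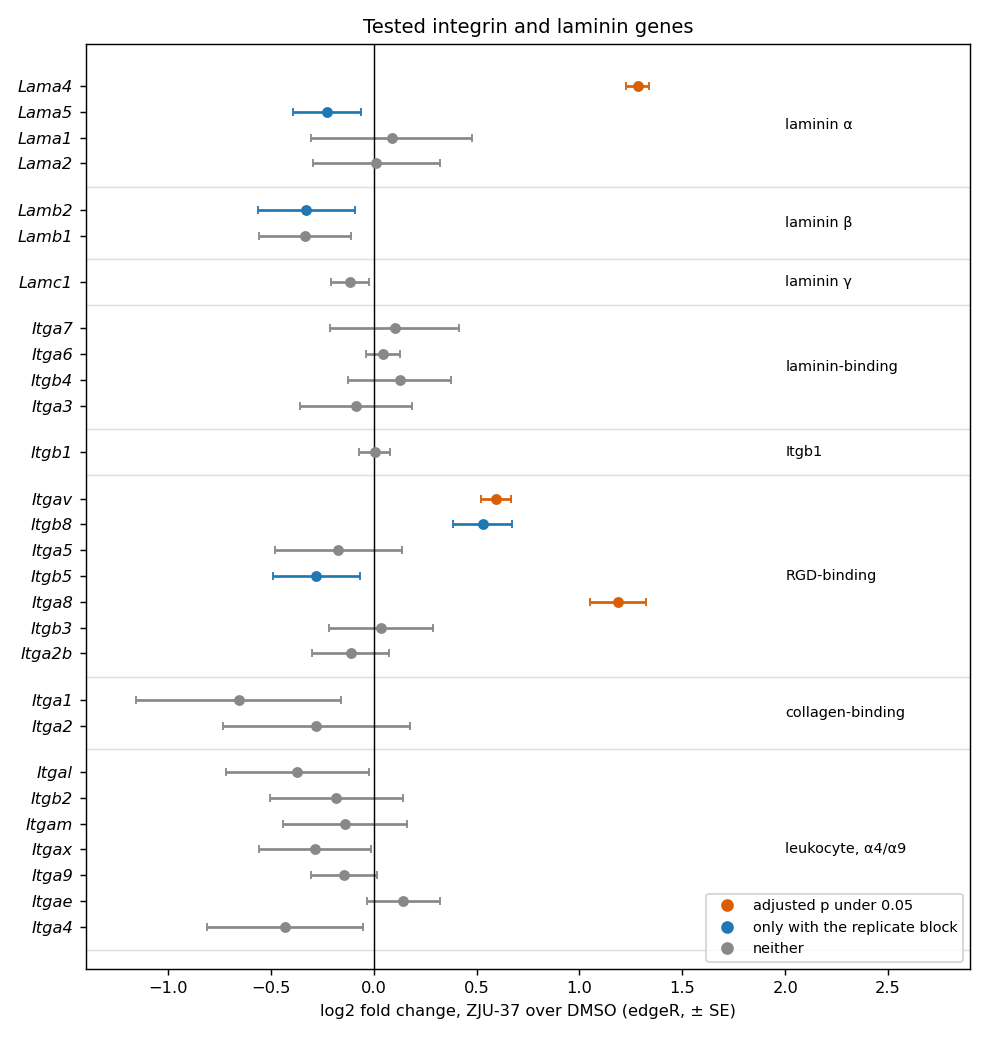
Log2 fold change of ZJU-37 over DMSO on the x axis for the tested integrin and laminin genes, grouped by role, with bars of 1 standard error from edgeR. Lama4 at 1.28, Itga8 at 1.19 and Itgav at 0.60 passed an adjusted p-value of 0.05, and of the 2 edgeR fits, without and with the replicate block, Itgb8, Lama5, Lamb2 and Itgb5 passed it in the one with the block.

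Lama4 (ENSRNOG00000000599) encodes the laminin α4 chain, known from vessel walls and peripheral nerve. The deposited table, whose build is not stated, places it on chromosome 20 from 44060731 to 44209614 on the plus strand. The DMSO libraries had 57.6, 56.4 and 58.2 CPM in the order of their replicate number, as in all that follows, and the ZJU-37 libraries had 145, 136 and 138 CPM. Every ZJU-37 library lay above every DMSO library by more than the spread within either group. The means were 57.4 ± 0.95 and 140 ± 4.87 CPM (SD, n = 3 libraries each), which is 2.43-fold. The log2 fold change was 1.28 with a standard error of 0.06 (edgeR, adjusted p = 1.32e-04). Taken pair by pair, the log2 differences were 1.33, 1.26 and 1.24. Its span overlaps that of Fam229b on the other strand, which had 227 counts over all libraries against 11713 for Lama4.

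Itga8 (ENSRNOG00000016538) encodes the integrin α8 chain, which pairs with β1 and binds RGD ligands such as nephronectin. The table puts it on the minus strand of chromosome 17, from 79321900 to 79676499. The DMSO libraries had 14.2, 11.6 and 11.8 CPM and the ZJU-37 libraries 24.4, 28.9 and 32.0 CPM. The groups did not overlap, although the ZJU-37 libraries were less alike than for Lama4. The means were 12.5 ± 1.44 and 28.4 ± 3.81 CPM (SD, n = 3 libraries each). On the log2 scale this rise was 1.19 with a standard error of 0.14 (edgeR, adjusted p = 0.00194). Npnt, the gene of nephronectin, was at 1.95 ± 0.99 and 1.75 ± 0.16 CPM (SD, n = 3 libraries each) in DMSO and ZJU-37 and did not pass the test (adjusted p = 0.821, edgeR).

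Itgav (ENSRNOG00000004912), on chromosome 3 from 71114100 to 71202411 on the plus strand, encodes the αv chain shared by integrins with β1, β3, β5, β6 and β8. It was at 107, 97.1 and 105 CPM with DMSO against 161, 144 and 162 CPM with ZJU-37. The rise was smaller than that of Lama4 and Itga8 but alike in the 3 pairs, with log2 differences of 0.59, 0.57 and 0.62. The means were 103 ± 5.27 and 156 ± 10.0 CPM (SD, n = 3 libraries each), and edgeR gave a log2 fold change of 0.60 with a standard error of 0.07 (adjusted p = 0.00242).

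**Figure D2:**
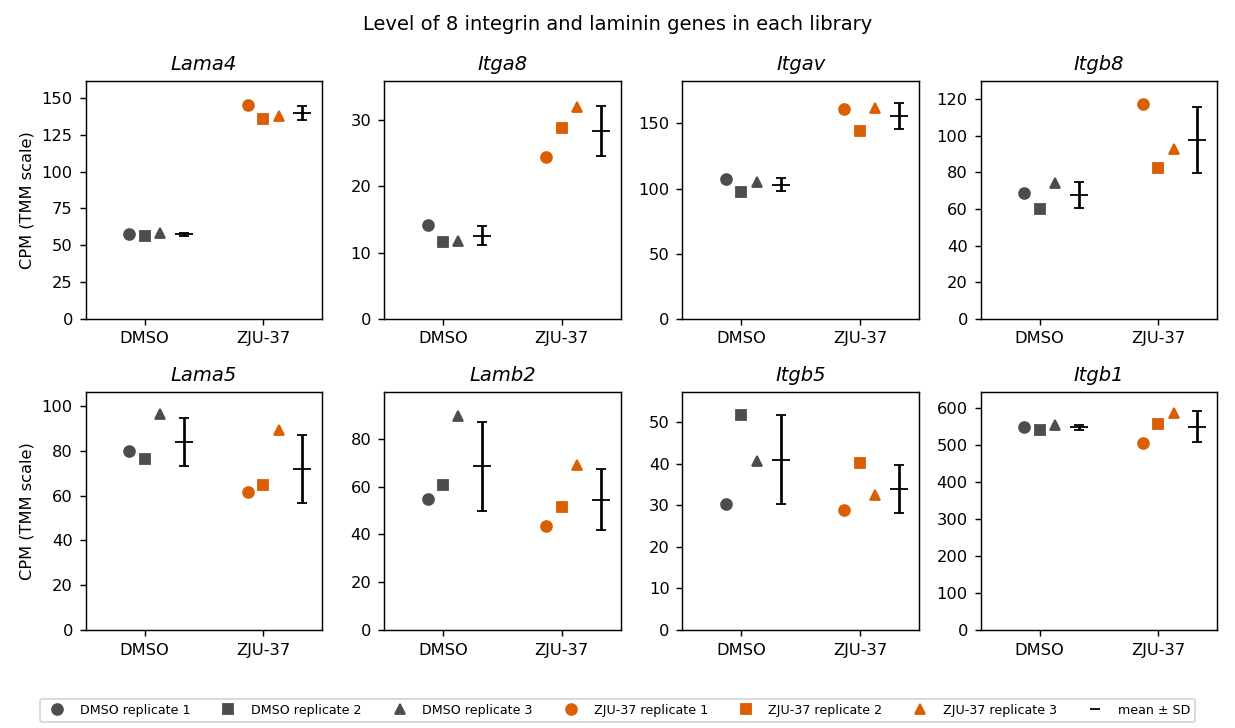
Level in CPM on the y axis of 8 members in each DMSO (grey) and ZJU-37 (orange) library, with symbols for the replicate number and the mean ± SD of 3 libraries beside them. The groups are apart for Lama4, Itga8, Itgav and Itgb8, while for Lama5, Lamb2 and Itgb5 the groups overlap and each ZJU-37 library is below the DMSO library of the same number.

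The 250 bases before the transcription start of the 3 called members are given here beside those of Lama5, the other abundant laminin α chain, which did not rise. They are from RefSeq on build GRCr8, 5′ to 3′ on the strand of the gene, and 27 of the 35 members were matched there by symbol. Capitals mark matches, on either strand, to any of 6 motifs searched for: an Sp1 box (GGGCGG), an AP-1 site (TGANTCA), an ETS site (CCGGAAG), an E-box (CACGTG), a TEAD site (GGAATG) and the NF-κB site. The windows shown hold matches to the Sp1 box alone, so matches to different motifs do not overlap there.
Lama4, chr20:43946648-43946897, plus strand: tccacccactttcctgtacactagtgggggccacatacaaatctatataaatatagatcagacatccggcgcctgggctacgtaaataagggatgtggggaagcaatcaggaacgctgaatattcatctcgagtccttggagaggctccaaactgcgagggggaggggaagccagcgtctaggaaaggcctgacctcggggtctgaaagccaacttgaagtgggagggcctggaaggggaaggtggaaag
Lama5, chr3:187695975-187696224, minus strand: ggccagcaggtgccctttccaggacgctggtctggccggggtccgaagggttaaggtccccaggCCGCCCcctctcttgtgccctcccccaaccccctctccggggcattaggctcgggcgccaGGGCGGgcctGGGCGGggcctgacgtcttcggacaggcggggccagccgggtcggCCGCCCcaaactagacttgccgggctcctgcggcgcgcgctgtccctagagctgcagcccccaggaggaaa
Itgav, chr3:89245132-89245381, plus strand: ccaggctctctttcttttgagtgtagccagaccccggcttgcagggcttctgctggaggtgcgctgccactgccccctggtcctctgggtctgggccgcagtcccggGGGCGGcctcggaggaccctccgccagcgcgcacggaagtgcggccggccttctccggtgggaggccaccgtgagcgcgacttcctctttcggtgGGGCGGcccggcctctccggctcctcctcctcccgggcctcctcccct
Itga8, chr17:80410634-80410883, minus strand: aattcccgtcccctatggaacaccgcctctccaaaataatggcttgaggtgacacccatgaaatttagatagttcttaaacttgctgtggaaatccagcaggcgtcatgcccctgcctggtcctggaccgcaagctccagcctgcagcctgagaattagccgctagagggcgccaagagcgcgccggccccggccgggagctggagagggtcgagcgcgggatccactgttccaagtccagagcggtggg
The windows of Lama4 and Itga8 hold none of the 6 motifs, that of Itgav holds 2 Sp1 boxes and that of Lama5 holds 4. Over all 33469 promoters of this length, 30.5% hold an Sp1 box, 6.34% an AP-1 site, 7.27% an ETS site, 5.59% an E-box, 12.1% a TEAD site and 6.33% an NF-κB site. Of the 27 matched members, 14 hold an Sp1 box, 1 an AP-1 site, 2 an ETS site, 0 an E-box, 5 a TEAD site and 2 an NF-κB site, the last being Itga5 and Lamb3. The share of G and C was 53.2% for Lama4, 59.6% for Itga8, 72.0% for Itgav and 72.8% for Lama5, with a median of 51.2% over all promoters. These are matches of letters, not sites of binding.

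Laminin chains were unequally abundant. To compare genes with each other, levels per length were used, in CPM per kilobase of the authors' gene length (RPKM, on the TMM scale). Lamc1, the γ chain of most laminin trimers, was the most abundant at 34.4 ± 1.98 RPKM with DMSO and 31.7 ± 3.51 RPKM with ZJU-37 (SD, n = 3 libraries each). Next with DMSO came Lamb2 at 11.6 ± 3.15 RPKM, Lama4 at 9.65 ± 0.16 RPKM and Lama5 at 7.43 ± 0.95 RPKM. The spreads of Lamb2 and Lama4 overlapped. With ZJU-37 Lama4 was at 23.5 ± 0.82 RPKM, above Lamb2 at 9.25 ± 2.20 RPKM and Lama5 at 6.35 ± 1.35 RPKM in all libraries. Lamb1 at 1.73 ± 0.23 RPKM and Lama1 at 0.60 ± 0.17 RPKM with DMSO were lower, and Lama2, Lamb3 and Lamc3 had means of at most 0.0959 RPKM over all libraries.

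Of the summed level of the 4 laminin α chains named in the table, Lama4 made up 55.3%, 56.8% and 51.4% with DMSO, and 79.2%, 78.8% and 72.9% with ZJU-37. Lama5 made up 41.7 ± 2.52% with DMSO and 20.7 ± 3.70% with ZJU-37 (SD, n = 3 libraries each). The level of Lama4 was 1.31 ± 0.14 times that of Lama5 per length with DMSO and 3.81 ± 0.79 times with ZJU-37 (SD, n = 3 libraries each). These shares use the values that gave the test of Lama4 and are a description of them.

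**Figure D3:**
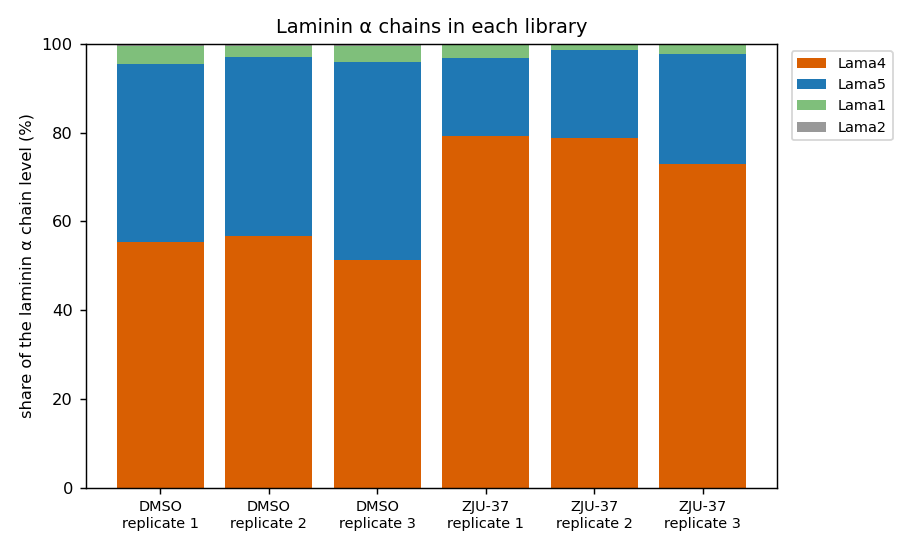
Share in percent of the summed level per length of Lama1, Lama2, Lama4 and Lama5 on the y axis, in each of the 6 libraries on the x axis. Lama4 takes between 51.4% and 56.8% with DMSO and between 72.9% and 79.2% with ZJU-37, and Lama2 is too low to be seen.

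Among the other laminin chains, Lama5 was at 79.8, 76.3 and 96.4 CPM with DMSO and at 61.5, 64.8 and 89.4 CPM with ZJU-37. Lamb2, the β chain of many basement membranes of nerve and muscle, was at 55.0, 60.7 and 89.7 CPM with DMSO and at 43.5, 51.4 and 68.9 CPM with ZJU-37. For both genes the groups overlapped, replicate 3 was highest in each group, and each pair was lower with ZJU-37. Without the block neither passed (log2 fold changes -0.23 and -0.33, adjusted p = 0.438 and 0.436, edgeR), whereas with the replicate block both fell (-0.24 and -0.32, adjusted p = 0.0194 and 0.00274, edgeR). Lamc1 stood at -0.11 ± 0.09 and Lamb1 at -0.33 ± 0.22 on the log2 scale (fold change ± standard error, edgeR, adjusted p = 0.494 and 0.391). Lamb3, a β chain of epithelial laminin, had 1, 1 and 8 counts with DMSO and 7, 12 and 21 counts with ZJU-37 and was not tested, and Lamc3 had at most 2 counts in a library.

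The integrin chains that bind laminin did not pass the test. Itga6, which pairs with β1 or β4, was at 36.6, 33.2 and 37.2 CPM with DMSO and at 34.0, 37.5 and 38.9 CPM with ZJU-37, with 0.05 as the log2 fold change and 0.08 as its standard error (edgeR, adjusted p = 0.767). Itga7 was at 43.7, 55.0 and 72.6 CPM and at 37.6, 62.4 and 83.9 CPM (log2 fold change 0.10, standard error 0.31, adjusted p = 0.868). For Itga7 the order of the replicate numbers was the same in both groups, and the difference between replicates was larger than that between groups. Itga3 and Itgb4 were lower, at 0.91 ± 0.13 and 1.06 ± 0.23 RPKM with DMSO (SD, n = 3 libraries each), and had adjusted p-values of 0.874 and 0.790 (edgeR). The span of Itgb4 overlaps that of Galk1 on the other strand, so its counts are uncertain. Itgb1, the common β chain of the laminin and collagen receptors, was at 549, 541 and 553 CPM and at 505, 556 and 587 CPM. Its log2 fold change was 0.00 with a standard error of 0.07 (adjusted p = 0.980, edgeR).

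Of the 8 RGD-binding chains, Itga8 and Itgav rose, 5 did not pass and 1 was not tested. The 2 called are 28.6% of the 7 tested, against 15.0% of all tested genes called and 9.43% higher. With the replicate block 3 of the 7 were higher and 1 lower, or 57.1% called against 32.1% of all tested genes. Itgb8, the β8 chain that with αv activates latent TGF-β, was at 68.7, 59.8 and 74.2 CPM with DMSO and at 117, 82.6 and 92.7 CPM with ZJU-37. Its groups did not overlap, as was the case for 5 of the 29 tested members, all higher with ZJU-37, against 35.2% of all tested genes in either direction and 19.0% higher. Its log2 fold change of 0.53 (standard error 0.15) had an adjusted p-value of 0.0571 without the block, 0.00253 with the block (edgeR), 0.0356 without ZJU-37 replicate 2 (edgeR) and 0.0144 with DESeq2. In the other 12 of 15 alternatives it did not pass, with adjusted p-values from 0.0554 to 0.165 (edgeR and limma-voom). Itgb5, named for another partner of αv but listed by the authors as a processed transcript, was at 30.5, 51.9 and 40.8 CPM and at 28.9, 40.2 and 32.5 CPM. It passed only with the replicate block, where it fell (log2 fold change -0.27, adjusted p = 0.0226, against 0.459 without the block, edgeR). Itga5, the chain of the fibronectin receptor, was at 72.4, 84.5 and 108 CPM and at 44.4, 87.8 and 102 CPM (adjusted p = 0.770, edgeR), with ZJU-37 replicate 1 the lowest library. Itgb3, another αv partner, was near 2.5 CPM in both groups, at 2.46 ± 0.54 and 2.51 ± 0.46 CPM (SD, n = 3 libraries each). Itga2b, the platelet chain, was at 2.32 ± 0.11 and 2.14 ± 0.12 CPM, and Itgb6, an epithelial chain, had 0 counts in 4 libraries and 2 counts in each of the others. Per length, the αv partners stood with DMSO in the order Itgb1, Itgb8 (19.4 ± 2.07 RPKM), Itgb5 (10.6 ± 2.75 RPKM) and Itgb3 (1.03 ± 0.23 RPKM). The level of Itgav was 0.21 ± 0.01 of that of Itgb1 with DMSO and 0.32 ± 0.03 with ZJU-37 (SD, n = 3 libraries each).

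The collagen-binding chains had low counts. Itga1 had 65, 24 and 96 counts with DMSO and 40, 37 and 75 counts with ZJU-37, and Itga2 had 15, 15 and 41 and 16, 18 and 40 counts. Neither passed the test (adjusted p = 0.459 and 0.744, edgeR), and the span of Itga1 overlaps that of the more abundant Pelo. Itga10 and Itga11 had between 2 and 14 counts per library and were not tested. For Itga10 and Itga11 a change was not detectable at this depth.

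The most abundant integrin α chain of the cultures was a leukocyte chain. Itgal, the α chain of LFA-1, was at 564, 910 and 882 CPM with DMSO and at 330, 791 and 701 CPM with ZJU-37. Its partner Itgb2 was at 201, 311 and 321 CPM and at 140, 308 and 287 CPM, and Itgam, the α chain of complement receptor 3, at 176, 271 and 259 CPM and at 127, 270 and 243 CPM. In each of these genes replicate 1 was the lowest library of its group, by more than the difference between the groups. Per length Itgal reached 174 ± 42.6 RPKM with DMSO and 135 ± 54.2 RPKM with ZJU-37, and it was above Itgb1 in 3 of the 6 libraries. It made up 57.6 ± 4.09% of the summed level of the 17 integrin α chains with DMSO and 48.2 ± 7.28% with ZJU-37 (SD, n = 3 libraries each). Itgal was 1.97 ± 0.06 times as abundant as Itgb2 per length with DMSO and 1.72 ± 0.07 times with ZJU-37.

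None of the leukocyte chains passed the test between the groups. Itgal, Itgb2, Itgam and Itgax had log2 fold changes of -0.37, -0.18, -0.14 and -0.28 with standard errors of 0.35, 0.32, 0.30 and 0.27 (adjusted p = 0.554, 0.764, 0.808 and 0.567, edgeR), and adjusted p-values of 0.0513, 0.134, 0.184 and 0.0626 with the replicate block. The span of Itgax lies inside that of Itgam on the same strand, so the split of reads between them is uncertain. These chains moved with the microglia markers. Itgal, Itgam, Itgax and Itgb2 together were at 999, 1579 and 1529 CPM with DMSO and at 634, 1444 and 1294 CPM with ZJU-37, and the 14 microglia markers were at 2806, 4870 and 3816 CPM and at 1999, 4234 and 3237 CPM. The first sum was between 0.317 and 0.401 of the second in every library. No microglia marker passed the test without the block (edgeR), and 7 of the 14 fell with it, as did 15.9% of all tested genes. Whether the leukocyte chains came from microglia was not tested, and in bulk samples fewer cells of a type and less RNA per cell cannot be told apart. The α4 and α9 chains were grouped with the leukocyte chains and are not all particular to leukocytes. In the rest of this group, Itga9, Itgae and Itga4 were at 8.40 ± 1.05, 6.58 ± 0.47 and 1.25 ± 0.31 CPM with DMSO (SD, n = 3 libraries each), none passed, and Itgb7 had between 3 and 6 counts per library. The span of Itgae overlaps those of several more abundant genes, among them Ncbp3 and Haspin.

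**Figure D4:**
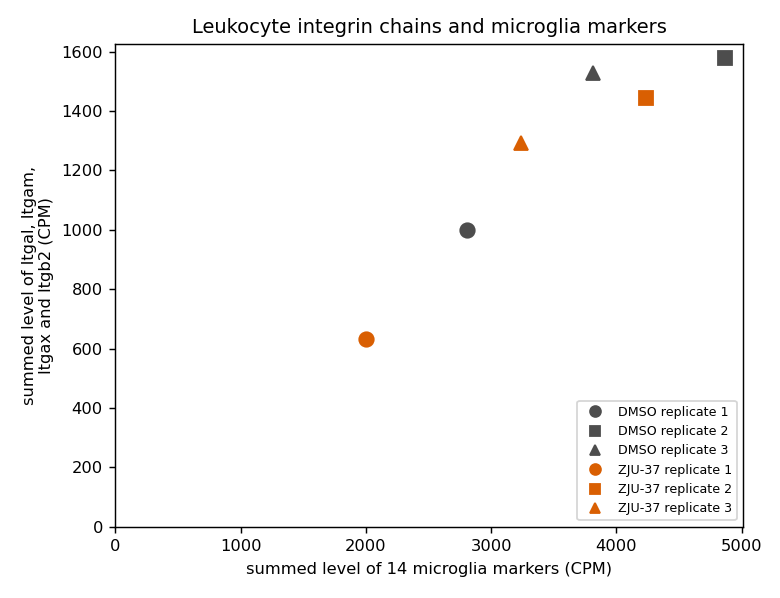
Summed level in CPM of Itgal, Itgam, Itgax and Itgb2 on the y axis against that of 14 microglia markers on the x axis, 1 point per library. The replicate 1 libraries are lowest on both axes, at 999 CPM with DMSO and 634 CPM with ZJU-37.

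**Figure D5:**
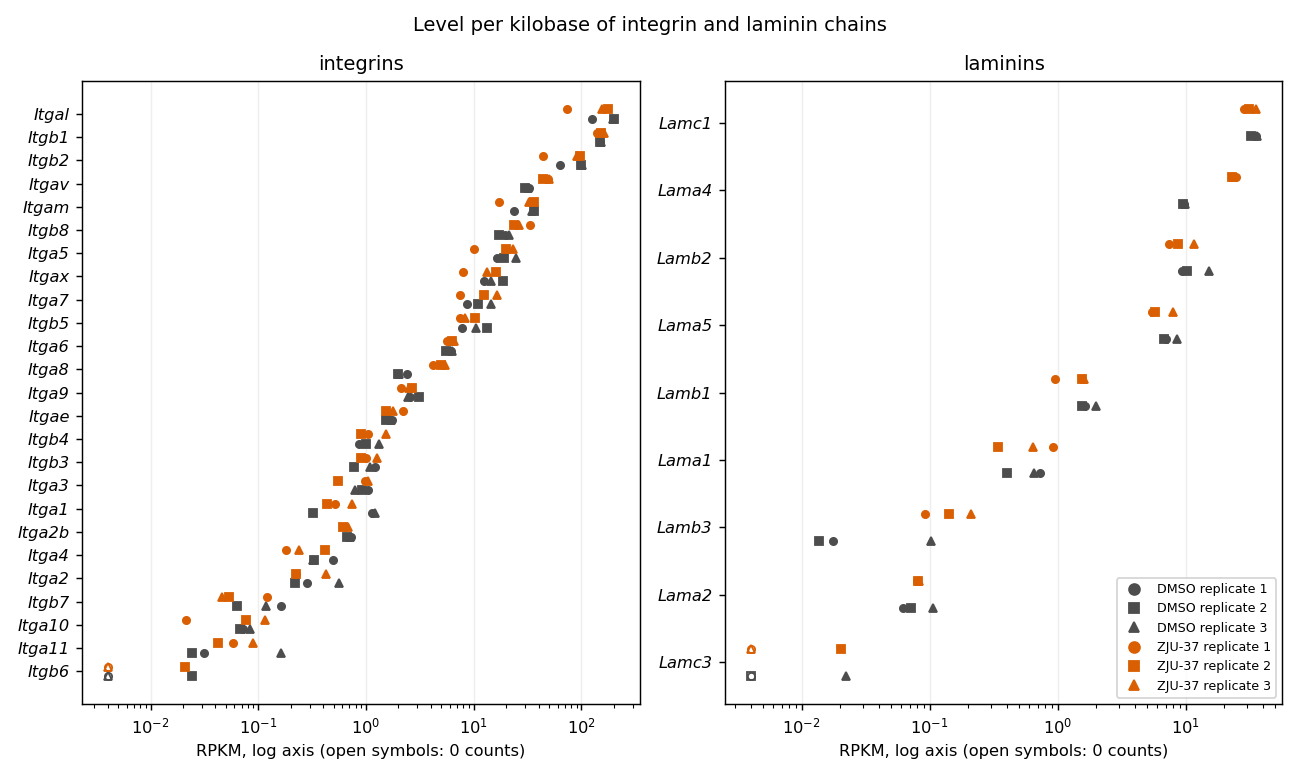
Level per length in RPKM on a log axis of the integrin and laminin chains in each library, ordered by the mean over all libraries, with open symbols at the left edge for 0 counts. Itgal and Itgb1 lead the integrins and Lamc1 the laminins, and only Lama4, Itgav and Itga8 among the abundant chains have the 2 groups apart with an adjusted p-value under 0.05.

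Among genes that act with integrins inside the cell, more fell than rose. Of a list of 39 focal adhesion and integrin activation genes, 38 were tested, 2 rose and 9 fell (edgeR), which is 28.9% called against 15.0% of all tested genes, and the median log2 fold change was -0.06 against -0.03 over all tested genes. Src, a kinase at focal adhesions, rose from 173 ± 6.00 to 328 ± 11.4 CPM (log2 fold change 0.92, adjusted p = 3.61e-04). Fyn, the Src family kinase linked to integrin signals in oligodendrocyte differentiation, fell from 1026 ± 99.4 to 498 ± 42.2 CPM (-1.04, adjusted p = 0.00102), so the 2 kinases moved in opposite directions. The largest fall was that of Lims2, which encodes the adaptor PINCH2 of the integrin-linked kinase complex, with 223, 213 and 189 CPM in the DMSO libraries and 26.4, 16.5 and 17.8 CPM in the ZJU-37 libraries (log2 fold change -3.37, standard error 0.19, adjusted p = 3.20e-04). Its paralog Lims1 was at a log2 fold change of 0.07 and did not pass. The tensins Tns3, Tns2 and Tns1, which tie β chain tails to actin, fell by 1.60, 1.22 and 0.91 on the log2 scale (adjusted p = 5.49e-04, 0.00419 and 0.0242). The other called genes of the list, named after their values were seen, were Arhgap35, Bcar1, Rapgef1 and Ilk, which fell by 0.80, 0.74, 0.52 and 0.37, and Ptk2, the gene of focal adhesion kinase, which rose by 0.27 on the log2 scale. With the replicate block 5 genes of the list were higher and 13 lower, against 16.2% and 15.9% of all tested genes. Of the 12 mature oligodendrocyte markers 4 fell as well (7 with the block), with sums of 13299 to 25297 CPM with DMSO and 5242 to 10536 CPM with ZJU-37, and their part in these falls was not tested.

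Of 30 basement membrane partners and other laminin receptors, 28 were tested, of which 3 rose and 3 fell (edgeR, 21.4% called against 15.0% of all tested genes), with a median log2 fold change of -0.08. With the block 6 were higher and 7 lower, where 16.2% of all tested genes were higher and 15.9% lower. Cd151, a tetraspanin that binds laminin-binding integrins, fell from 15.4 ± 3.66 to 2.70 ± 0.38 CPM (SD, n = 3 libraries each, log2 fold change -2.51, adjusted p = 7.08e-04). Cd9, another tetraspanin partner of integrins, fell from 207 ± 24.4 to 109 ± 7.78 CPM (-0.93, adjusted p = 0.00159). Nid2, a basement membrane linker that binds laminin, fell by 0.81 on the log2 scale (adjusted p = 0.00650). Bcam, a receptor of the laminin α5 chain, rose by 0.81 (adjusted p = 0.00740), Smoc1, a secreted calcium-binding matrix protein, by 1.22 (adjusted p = 0.00173) and Pomt2, an enzyme that glycosylates dystroglycan, by 0.35 (adjusted p = 0.0253). Dag1, the gene of dystroglycan itself, was at 527 ± 33.9 and 565 ± 28.9 CPM (SD, n = 3 libraries each) and did not pass (adjusted p = 0.456, edgeR).

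Of 28 integrin ligands other than laminins, 27 were tested, of which 4 rose and 2 fell (edgeR, 22.2% called against 15.0% of all tested genes), with a median log2 fold change of -0.25. With the block 6 were higher and 11 lower, or 63.0% called against 32.1% of all tested genes. Fbn2 and Emilin1, genes of RGD-bearing fibrillin 2 and of the elastic fibre protein emilin 1, rose with log2 fold changes of 3.79 and 1.05 (adjusted p = 4.49e-05 and 8.90e-04). Mfge8, whose product is an RGD ligand of αv integrins, rose from 114 ± 9.79 to 187 ± 29.5 CPM (log2 fold change 0.72, adjusted p = 0.0102). Thbs4 rose from 2.76 ± 0.63 to 7.37 ± 1.43 CPM (1.40, adjusted p = 0.00953). Tnr, the tenascin made by oligodendrocyte lineage cells, fell from 611 ± 95.5 to 54.6 ± 5.16 CPM (-3.48, adjusted p = 1.32e-04), and Tgfb2 from 40.7 ± 7.97 to 20.1 ± 0.68 CPM (-1.01, adjusted p = 0.00407). Tgfb2 was counted as the list was written, and binding of its product to an integrin was not tested. Fn1, the gene of fibronectin, was at 449 ± 65.4 and 396 ± 85.6 CPM. Without the block Fn1 did not pass and with it Fn1 did (adjusted p = 0.583 and 0.0281, edgeR). Vtn, the gene of vitronectin, was near 0.5 CPM and not tested.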

How the data were processed

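RNA was measured in 6 libraries, 3 per group. Per the labels and the methods, the authors filtered the reads, used HISAT2 2.0.5, StringTie 1.3.3b and featureCounts 1.5.0, and deposited raw counts per gene, neither normalized nor filtered. The genome build is not given in the sources used here. The deposited table also holds FPKM values and the authors' own comparison of the groups (means, fold changes and p-values), which were not used. The strand setting of the counting is not given there either, so genes that overlap on opposite strands cannot be told apart.

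Low counts were removed with filterByExpr. TMM factors (0.981 to 1.04) scaled the rest, and the robust quasi-likelihood test of edgeR 4.0.16 (R 4.3.3) compared the groups, adjusted by Benjamini-Hochberg over 14670 genes. Standard errors are the log2 fold change divided by the square root of F. CPM is on the TMM scale, and RPKM is CPM per kilobase of the listed gene length. The replicate numbers paired the libraries: the deviation of a library from the mean of its group correlated across genes, for libraries with the same number, at r = 0.39, 0.31 and 0.33, and for the others at r between -0.27 and -0.01. The study's methods state no block, so the block is given as an alternative. No libraries were duplicates (chi-square at least 11.9 per degree of freedom). On simulated counts of 14529 genes for this comparison, edgeR recovered 74% of genes with a log2 change of 1 in size and 93% of those with 2, with 6.70% false calls. The shares were 68%, 91% and 11.2% with the block and 79%, 95% and 19.1% with DESeq2 (14669 genes). The simulated libraries had no pairing by replicate number, unlike the real ones. The shares with the block therefore do not show how it performs on these data.

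Members and gene lists were chosen with earlier results of these data known. Named were all members called with or without the block, those with a mean of at least 10 CPM, the most abundant of each role, and of the 3 pathway lists at most 6 called genes of at least 1 CPM, largest change first. Other genes named beside them (Npnt, Dag1, Fn1, Vtn, Lims1 and members of low count) were added after their values were seen. A single tested member is included in the counts but not reported here. Crkl, Lhfpl3, Pecam1 and Col6a3 of the lists were not analysed here. Alternatives were DESeq2 1.42.0, limma-voom (limma 3.58.1), other normalizations and filters, thinning to the smallest library, other thresholds, the block, and each library left out in turn. Leaving out both replicate 1 libraries was added after the data were seen.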

Additional observations from a re-analysis of the deposited data

How the results depend on the processing

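Lama4, Itga8 and Itgav stayed higher at an adjusted p-value under 0.05 in all 15 alternatives, the 6 that leave out 1 library and the replicate block included, with log2 fold changes from 1.26 to 1.33, from 1.12 to 1.39 and from 0.55 to 0.68 and adjusted p-values of at most 0.00247, 0.0129 and 0.0146. The count of 3 called members became 7 with the replicate block and 5 (all higher) at an unadjusted p-value under 0.05, and the count of 0 lower members became 3 with the block (Lama5, Lamb2 and Itgb5). With 1 library left out the counts were from 3 to 4 called, from 3 to 4 higher and from 0 to 0 lower, the added call being Itgb8 without ZJU-37 replicate 2. Without both replicate 1 libraries they were 3, 3 and 0. The focal adhesion list had 11 called genes and 18 with the block, the basement membrane list 6 and 13 with the block (10 at the unadjusted threshold), and the list of other ligands 6 and 17 with the block. The cause of these moves was not tested. With 1 library left out these lists had from 9 to 11, from 5 to 7 and from 6 to 7 called genes.

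With 1 library left out, the log2 fold change changed sign for 12 members that did not pass the test, with ranges of -0.65 to 0.24 for Itga2, -0.0212 to 0.0798 for Itgb1, -0.25 to 0.41 for Lama1, -0.13 to 0.28 for Lama2, -0.17 to 0.37 for Itga7, -0.00309 to 0.118 for Itga6, -0.10 to 0.31 for Itgb4, -0.23 to 0.18 for Itga3, -0.37 to 0.11 for Itgb2, -0.32 to 0.14 for Itgam, -0.40 to 0.13 for Itga5 and -0.13 to 0.17 for Itgb3. After thinning to the smallest library it was -0.00794 for Itgb1 and -0.21 for Lama2. Without both replicate 1 libraries it was -0.0935 for Lama1, -0.11 for Lama2 and 0.00114 for Itga4. Over all 29 tested members and all alternatives, 403 of 432 values kept their direction and their side of the threshold. Members under about 1 CPM are limited by depth.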
